A study of Mus musculus with 8 samples.

Results

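The bile acid handling genes of the small intestine comprised 7 genes, chosen by name for their roles in the ileal bile acid circuit: *Slc10a2*, *Fabp6*, *Slc51a*, *Slc51b*, *Nr1h4*, *Nr0b2* and *Fgf15*. All 7 were listed among the 12701 genes of the villus table, and 4 of them (*Slc10a2*, *Fabp6*, *Slc51a* and *Nr1h4*) were listed among the 11554 genes of the crypt table. The tables together held 13028 genes. RNA was sequenced from crypt and villus epithelium of Ctrl and *Gli1-PtgscKO* (cKO) mice, with 2 deposited replicates per genotype and tissue. Every mouse had the C57BL/6 background. The labels give the Ctrl mice as Gli1-CreERT2; Rosa26-tdTomato, whereas a figure legend of the study describes controls that carry the floxed alleles without Cre. Tissue of both Ctrl and cKO mice is recorded as taken 1 month after tamoxifen. In cKO mice, tamoxifen activates a Cre driven by *Gli1*, which removes the floxed cyclooxygenase genes *Ptgs1* and *Ptgs2* from *Gli1*-expressing mesenchymal cells. The deletion therefore lies in the mesenchyme while the libraries were made from epithelial preparations, which also held RNA of mesenchymal marker genes. The age of the mice, the stretch of small intestine and whether each replicate was 1 mouse are not given in the sources used here, so the p-values measure only the spread between these libraries.

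Bile acids are made in the liver, released into the gut and recovered mainly in the ileum, the distal part of the small intestine. *Slc10a2* encodes the apical sodium-dependent transporter that takes them up, *Fabp6* the cytosolic protein that binds them inside the enterocyte, and *Slc51a* and *Slc51b* the α and β subunits of the basolateral exporter. The nuclear receptor encoded by *Nr1h4* (FXR) senses bile acids and is known to raise *Fabp6*, *Slc51a*, *Slc51b*, *Nr0b2* and *Fgf15*. *Nr0b2* encodes the corepressor SHP, and *Fgf15* an enterocyte hormone that lowers bile acid synthesis in the liver.

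In the villi, *Fabp6* had the largest difference of the members as deposited, at 4.3-fold and 2.66-fold less in the cKO libraries than in the Ctrl library. After a correction for transcript length it no longer came first, at -0.84 on the log2 scale beside 0.87 for *Fgf15* and -0.86 for *Slc10a2*. The uptake transporter and both exporter subunits were also lower, while *Fgf15* was slightly higher at very few reads. In the crypts none of the 4 listed members passed the test, and the libraries of one genotype differed from each other as much as the genotypes did. Much of the villus difference in *Fabp6* and nearly all of that in *Slc51b* ran along with transcript length, as described with the values.

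The Ctrl villus columns were identical for all 12701 genes and were counted as 1 library, so villus differences are values from 1 Ctrl and 2 cKO libraries and no test was run. Values are read counts per gene divided by the library's size factor, written here as normalized counts. Reads on listed genes numbered 16853017 to 21121714 per crypt library and 13477600 to 15751024 per villus library. All 12 enterocyte markers and all 8 stem cell markers examined were listed in both tables. Stem cell markers summed to 98806 to 109754 normalized counts in the crypt libraries and 3279 to 5318 in the villus libraries, and enterocyte markers to 147147 to 210312 and 392279 to 549435, on tables normalized separately. Mesenchymal cell markers summed to 8774 to 15972 in the crypt libraries, with 8 listed, and to 1791 to 2068 in the villus libraries, with 7 listed. *Ptgs1*, a deleted gene, measured 365 and 164 normalized counts in Ctrl crypts and 178 and 199 in cKO crypts, so the genotypes overlapped. In the villi it measured 90.4 in Ctrl and 50.5 and 92.7 in cKO, and *Ptgs2* was not analysed here.

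Libraries differed by transcript length. Over 11546 crypt genes, the Spearman correlation between the length of the longest annotated transcript and a library's log2 difference from the other libraries was 0.244 and 0.449 in the Ctrl libraries, -0.673 in cKO replicate 1 and 0.574 in cKO replicate 2. In the villi, over 12692 genes, it was -0.54 in the Ctrl library and 0.497 and 0.391 in the cKO libraries. Short transcripts were thus relatively high in cKO crypt replicate 1 and in the Ctrl villus library. *Fabp6*, with 479 bases, and *Slc51b*, with 709 bases, are the shortest members, and *Slc10a2*, with 4152 bases, is the longest. The genotype differences of the members are therefore also given after subtracting a smooth curve over transcript length from each library. What lay behind the length pattern was not tested.

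The sequence just before the *Fabp6* start site is shown because *Fabp6* had the largest villus difference as deposited and is a known FXR target. FXR with its partner RXR is known to bind inverted repeats of a hexamer spaced by 1 base, and the motif searched was AGGTCA, any 1 base (N) and TGACCT in a row, which reads the same on both strands. In the RefSeq promoters of GRCm38.p6, 6 of the 7 members had an entry and *Fgf15* was not matched. The 250 bases before the *Fabp6* start, chr11:43601563-43601812 on the minus strand, are given 5′ to 3′ with the windows that differ from the motif at 2 positions in capitals.
Fabp6: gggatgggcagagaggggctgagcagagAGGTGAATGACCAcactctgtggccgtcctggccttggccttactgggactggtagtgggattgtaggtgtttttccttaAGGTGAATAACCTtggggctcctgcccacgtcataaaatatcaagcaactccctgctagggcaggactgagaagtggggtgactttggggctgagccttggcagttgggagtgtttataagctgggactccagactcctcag
The first window lies 222 to 210 bases before the start and the other 142 to 130 bases before it. A window with at most 2 mismatches was found in 0.959% of 32851 promoters of the same length, and 4 promoters, or 0.0122%, held at least 2 such windows. A match describes letters and does not show binding.

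The closest window of each other member is shown for comparison, with the 13 motif positions in capitals and 7 bases on each side.
Slc10a2: gtggcttAGTTCATTATCATgtcaata
Slc51a: ccacgtgAGGACTTTGTCCTtctcttc
Slc51b: attcgtgGGGTCATTCACCCtggactg
Nr1h4: atccgtgTGGCATTTGACCTccagcca
Nr0b2: aatggccACTTCATTGACTAaagtgat
*Slc51a* and *Slc51b* each had 3 mismatches to the motif, a closeness reached by 9.63% of all promoters. *Slc10a2*, *Nr1h4* and *Nr0b2* each had 4, which 50% of all promoters reached.

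To see how the members lay in the villus epithelium, their levels per length are described first, in CPM (the share of a library's reads on listed genes, scaled to a common total) per kilobase of the longest transcript. In the Ctrl villus library *Fabp6* reached 2467 CPM per kilobase, rank 20 of the listed genes. *Slc51a* followed at 136 and *Slc51b* at 69.2. *Nr1h4* measured 19.2, *Slc10a2* 6.55, *Nr0b2* 3.21 and *Fgf15* 0.606. The binding protein thus outweighed the uptake transporter per length by 376 to 1, and in the cKO libraries by 141 to 1 and 225 to 1. Dividing by length does not remove the length pattern of each library. After the length correction the genotype differences of *Fabp6* and *Slc10a2* were alike, at -0.84 and -0.86 on the log2 scale. The order of the 7 members was the same in cKO replicate 1, with *Fabp6* at 805, and in replicate 2, with *Fabp6* at 1203 CPM per kilobase.

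Uptake was examined through *Slc10a2* (ENSMUSG00000023073, GRCm38 chr8:5083219-5105351, minus strand). In the villi it measured 459.9 normalized counts in Ctrl and 286 and 289 in the cKO libraries. Both cKO libraries were lower, with a log2 difference of -0.68 (-0.68 and -0.67). After the length correction it was -0.86, so the correction did not reduce it. Among all villus genes 44.2% were lower in both cKO libraries and 19.9% had a lower difference than *Slc10a2*. In the crypts *Slc10a2* measured 312 and 801 in Ctrl and 379.8 and 311 in cKO. Ctrl replicate 2 stood alone above the other libraries, and the genotypes overlapped (557 ± 346 against 345 ± 48.9, SD, n = 2 each). The log2 fold change was -0.54 (SE 0.47, limma adjusted p = 1.00), and -0.48 after the length correction. Without Ctrl replicate 2 it was 0.14.

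Intracellular carriage was examined through *Fabp6* (ENSMUSG00000020405, GRCm38 chr11:43596049-43601540, minus strand). In the villi it measured 19965 normalized counts in Ctrl, 4645 in cKO replicate 1 and 7501 in cKO replicate 2. Both cKO libraries lay far below the Ctrl library, at 6073 ± 2019.6 (SD, n = 2). The log2 difference was -1.76 (-2.1 and -1.41), and 1.05% of all villus genes had a lower one. *Fabp6* was the 1 member called lower, meaning a log2 difference under -1 with both cKO libraries lower, a call that 9.4% of all villus genes received. After the length correction the difference was -0.84 (-1.12 and -0.57), still lower in both cKO libraries but no longer past the call. Read against the 12 enterocyte markers, *Fabp6* reads amounted to 3.63% of marker reads in the Ctrl villi and to 1.02% and 1.91% in the cKO villi. These percentages were not corrected for transcript length.

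In the crypts *Fabp6* measured 1321 and 2663 normalized counts in Ctrl and 5470.3 and 1015 in cKO. The highest and the lowest library were both cKO, so the cKO libraries enclosed the Ctrl libraries. The cKO replicates differed 5.39-fold, or 2.43 on the log2 scale, of which 0.87 remained after the length correction. The log2 fold change was 0.33 (SE 0.75, limma adjusted p = 1.00), and -0.26 after the length correction. It was 1.54 without cKO replicate 2, with an adjusted p of 0.02 in limma, and -0.89 without cKO replicate 1, with an adjusted p of 1.00. A direction for *Fabp6* in the crypts thus depended on which cKO library was kept.

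Export was examined through *Slc51a* (ENSMUSG00000035699, GRCm38 chr16:32474504-32487879, minus strand) and *Slc51b* (ENSMUSG00000053862, GRCm38 chr9:65412714-65422955, minus strand). In the villi *Slc51a* measured 6011 normalized counts in Ctrl and 3564 and 3683 in cKO. *Slc51b* measured 829 in Ctrl and 466 and 495 in cKO. Both subunits were lower in both cKO libraries by a like amount, -0.73 and -0.79 on the log2 scale. Their ratio per length hardly moved, at 1.96 in the Ctrl library and 2.07 and 2.02 in the cKO libraries. After the length correction, *Slc51a* remained lower at -0.54, whereas *Slc51b* was at 0.01. In the crypts *Slc51a* measured 3098 and 4231 in Ctrl and 4546 and 2429 in cKO, and the genotypes overlapped. Its log2 fold change there was -0.12 (SE 0.36, limma adjusted p = 1.00), -0.19 after the length correction and 0.33 without cKO replicate 2.

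The receptor gene *Nr1h4* (ENSMUSG00000047638, GRCm38 chr10:89454234-89533585, minus strand) measured 653 normalized counts in the Ctrl villi and 419.7 and 596 in the cKO villi. Both cKO libraries were lower, though replicate 2 by only 0.13 on the log2 scale, and the mean difference of -0.38 became -0.03 after the length correction. In the crypts it measured 976 and 1080.2 in Ctrl and 1228 and 847 in cKO. The cKO libraries enclosed the Ctrl libraries here too, with a log2 fold change of -0.01 (SE 0.28, limma adjusted p = 1.00), and -0.14 after the length correction.

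The corepressor and hormone genes were near the lower end of the villus table, whose smallest mean was 8.82 normalized counts. *Nr0b2* (ENSMUSG00000037583, GRCm38 chr4:133553376-133556536, plus strand) measured 61.4 normalized counts in Ctrl and 28.3 and 58.9 in cKO. These values rest on 53, 37 and 61 reads. On the normalized scale the exact 95% binomial intervals were 46 to 80.3 in Ctrl, 19.9 to 39 in cKO replicate 1 and 45.1 to 75.7 in cKO replicate 2. Beyond counting error, cKO replicate 1 thus lay below both other libraries, while cKO replicate 2 overlapped Ctrl. In CPM the intervals were 2.72 to 4.75 in Ctrl, 1.65 to 3.24 in cKO replicate 1 and 3.46 to 5.81 in cKO replicate 2, where both cKO intervals overlapped that of Ctrl but not each other. The mean log2 difference was -0.57 (-1.09 and -0.06), and 0.09 after the length correction.

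*Fgf15* (ENSMUSG00000031073, GRCm38 chr7:144896531-144900953, plus strand) measured 18.5 normalized counts in Ctrl and 30.6 and 21.2 in cKO, from 16, 40 and 22 reads. It was the 1 member higher in both cKO libraries, where 43.7% of all villus genes were higher in both. The log2 difference was 0.44, and 0.87 after the length correction. On the normalized scale the intervals of all 3 libraries overlapped, at 10.6 to 30.1 in Ctrl and 21.8 to 41.6 and 13.3 to 32.2 in cKO, so a difference was not detectable at this depth. In CPM the interval of cKO replicate 1, 1.81 to 3.46, lay above that of Ctrl, 0.627 to 1.78, while that of cKO replicate 2, 1.02 to 2.47, overlapped it. These intervals cover counting error only.

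**Figure D1:**
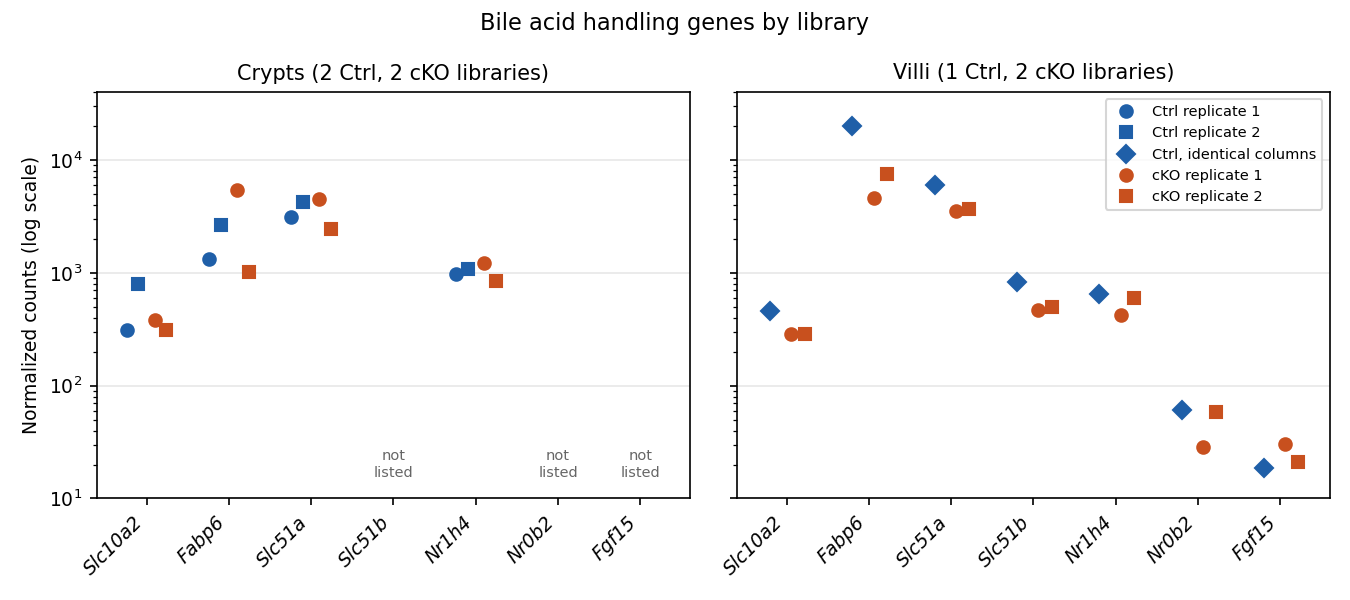
Normalized counts (vertical axis, log scale) of the 7 bile acid handling genes in each crypt library (left) and villus library (right); each point is 1 library, blue for Ctrl and orange for cKO, and genes marked as not listed had no line in the crypt table. *Fabp6* stands at 19965 in the Ctrl villi against 4645 and 7501 in the cKO villi, while its crypt values of 1015 to 5470.3 mix the genotypes.

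Across the members, 6 of 7 were lower in both cKO villus libraries, beside 44.2% of all genes, with a median log2 difference of -0.68 beside -0.0063 over all genes. After the length correction 3 of 7 were lower in both (*Slc10a2*, *Fabp6* and *Slc51a*), beside 43.7% of all genes, and the median was -0.03 beside -0.0245. None was then called lower, beside 4.99% of all genes. Scaling by library size alone moved the median of all villus genes to 0.42. On that scale 4 of 7 members were lower in both cKO libraries, with *Slc10a2* at -0.25, *Fabp6* at -1.33, *Slc51a* at -0.3 and *Slc51b* at -0.36. *Nr1h4* then changed sign, to 0.05. The share of all genes lower in both cKO libraries was not counted on that scale.

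**Figure D2:**
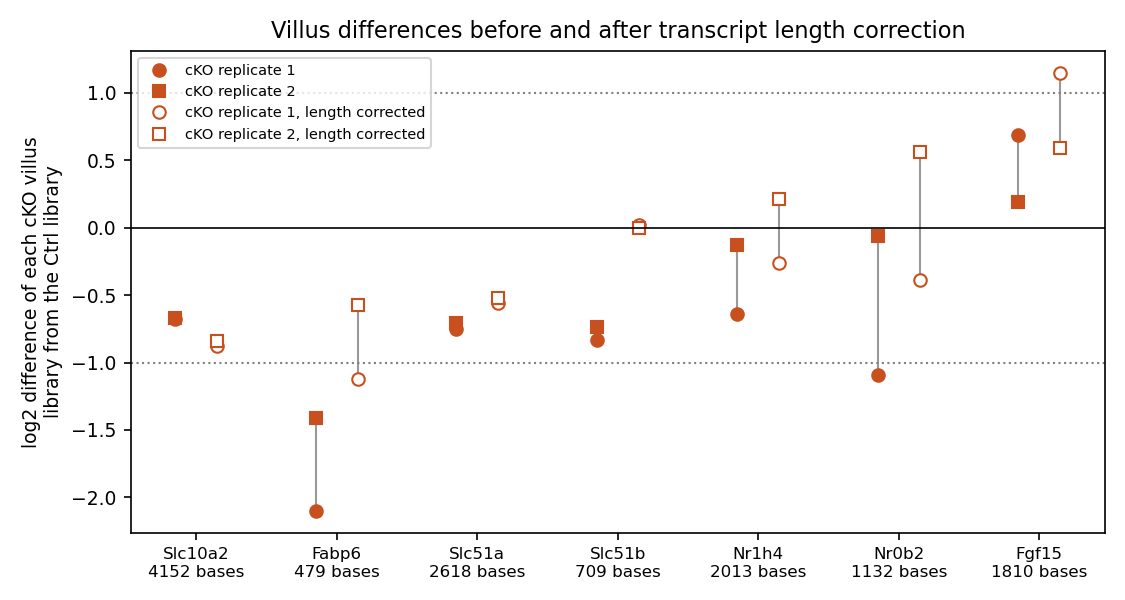
Log2 difference of each cKO villus library from the Ctrl library (vertical axis) for the 7 genes, with transcript length in bases under each name; filled points are the values as deposited, open points those after the length correction, circles cKO replicate 1 and squares replicate 2, and dotted lines mark 1 and -1. *Slc10a2* and *Slc51a* stay below 0 in both, *Fabp6* moves from -1.76 to -0.84 on average, and *Slc51b* moves from -0.79 to 0.01.

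In the crypts, 0 of the 4 listed members passed an unadjusted p under 0.01 with an absolute log2 fold change over 1, beside 0.182% of all genes (0.173% higher, 0.00866% lower). None reached an adjusted p under 0.05 in limma, beside 0% of all genes. At an unadjusted p under 0.05 limma gave 0 members and 73 genes in all, or 0.632%. The genotypes overlapped for all 4, as for 79% of all genes, and the median log2 fold change was -0.07 beside -0.0103 over all genes. With 2 libraries against 2, an exact two-sided permutation test of a single gene cannot give a p below 0.333. The cKO crypt libraries differed from each other more than the Ctrl libraries did, by a median of 0.5 against 0.19 on the log2 scale over all genes. Set against the Ctrl library of the same number, *Fabp6* was at 2.05 in cKO replicate 1 and -1.39 in cKO replicate 2 on the log2 scale. The like values were 0.28 and -1.36 for *Slc10a2*, 0.55 and -0.8 for *Slc51a*, and 0.33 and -0.35 for *Nr1h4*. The replicate numbers were not shown to pair the libraries, and the share of all genes with these signs was not counted.

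To compare crypts with villi, CPM was taken over the 11227 genes in both tables, without a test because the tables were normalized separately. *Fabp6* measured 72.1 and 140.3 CPM in Ctrl crypts and 1186 in Ctrl villi. In cKO it measured 267 and 54 in crypts and 387 and 578 in villi. Villi were higher in both genotypes, 11.2-fold in Ctrl and 3.01-fold in cKO. Neither fold was corrected for transcript length, and the Ctrl fold rests on 1 villus library. The cKO value rested on the crypt libraries: its log2 difference of 1.97 was 3.11 without crypt replicate 1 and 0.82 without crypt replicate 2. *Slc51a* was 1.82-fold higher in villi in Ctrl and 1.65-fold in cKO, without overlap. These were the 2 members of 4 with Ctrl villi above both Ctrl crypt libraries, beside 21.4% of the shared genes, and in cKO 3 of 4 had both villus libraries above both crypt libraries, beside 16%.

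*Slc10a2* measured 17 and 42.2 CPM in Ctrl crypts and 27.3 in Ctrl villi, which overlapped. In cKO its crypt values of 18.6 and 16.5 lay below the villus values of 23.8 and 22.3. *Nr1h4* ran the other way in Ctrl, with 53.3 and 56.9 CPM in crypts above 38.8 in villi, as for 73.6% of the shared genes, and overlapped in cKO, where 57.7% of the shared genes were lower in villi. Whether the villus excess of *Fabp6* differed between genotypes was not tested.

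**Figure D3:**
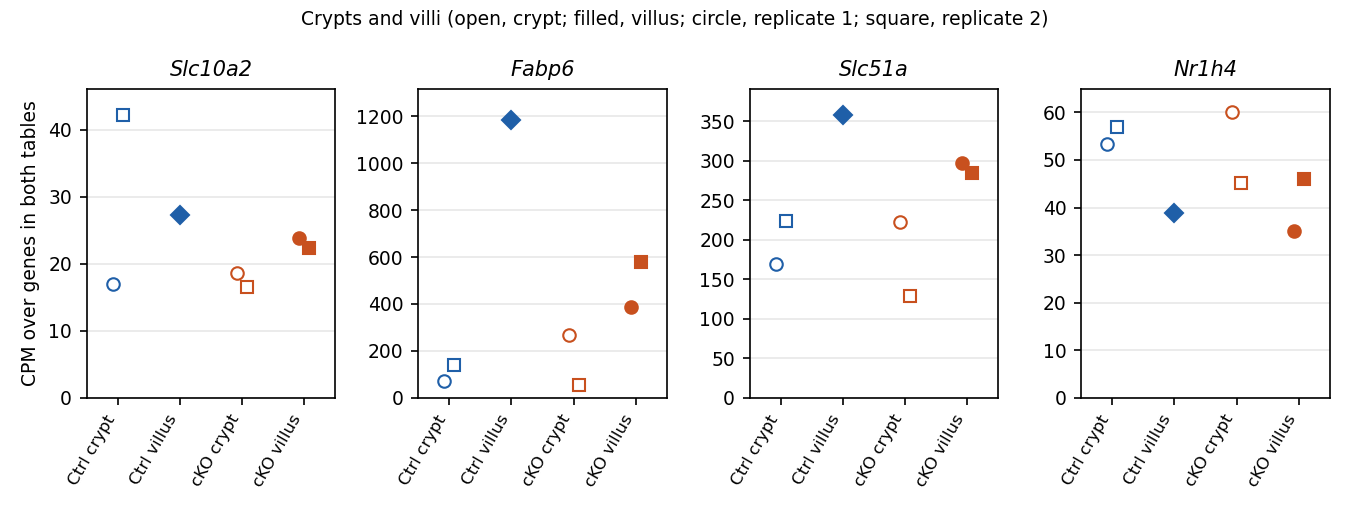
CPM over the genes in both tables (vertical axis, linear from 0, own scale in each panel) for the 4 bile acid handling genes listed in both; open points are crypt libraries, filled points villus libraries, blue Ctrl and orange cKO, with a diamond for the single Ctrl villus library. *Fabp6* rises from 72.1 and 140.3 in Ctrl crypts to 1186 in Ctrl villi, and *Nr1h4* is lower in Ctrl villi than in Ctrl crypts.

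The genes whose pattern was most like that of *Fabp6* were found by Pearson correlation of log2(CPM + 1), centred within each tissue, over the 7 libraries. *Ctnnbl1* (r = 0.985), *Cript* (0.98), *Fbxo25* (0.976), *Fbxl8* (0.969) and *Akr1b3* (0.967) came first among 11226 genes, and 137 genes exceeded 0.9. Among the members *Slc51a* reached 0.868 (rank 301), *Nr1h4* 0.641 (rank 1775) and *Slc10a2* 0.349 (rank 2821), against a median of -0.462 over all genes. Many genes outside the members were thus more like *Fabp6* than these. The libraries share depth and the length pattern, so these values describe likeness only.

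Other genes of bile acid transport and metabolism were examined from a list of 18. In the villi 12 were listed. Of these, 9 were higher and 2 lower in both cKO libraries, beside 43.7% and 44.2% of all genes. A call of higher was given to 5, beside 13.4% of all genes. Their median log2 difference was 0.48, and 0.68 after the length correction, opposite in sign to the median of the 7 members as deposited. *Abcb1a*, an apical efflux pump, measured 749 normalized counts in Ctrl and 4153 and 2710.2 in cKO, a log2 difference of 2.16 (1.79 length-corrected). *Cyp3a11*, a detoxifying oxidase that hydroxylates bile acids, measured 2969 in Ctrl and 7111 and 11779 in cKO (1.62, and 1.77 length-corrected). *Abcc2*, an apical exporter of conjugates, measured 1557 in Ctrl and 5315 and 3706 in cKO (1.51, and 0.7 length-corrected). In the crypts 11 were listed, none was called, and the median was -0.13. Only *Abcg5* (-0.24, and -0.34 length-corrected) and *Slco2b1* (-0.13, and -0.05) had both cKO crypt libraries on one side of Ctrl, beside 11.3% of all genes lower and 9.73% higher, and both had a limma adjusted p of 1.00.

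Among 23 bile acid sensors and regulators, 21 were listed in the villi, where 8 were higher and 12 lower in both cKO libraries, beside 43.7% and 44.2% of all genes, and the median was -0.22. The genes called were 1 higher and 1 lower, beside 13.4% and 9.4% of all genes. *Malrd1*, known as a regulator of *Fgf15* production, measured 422 normalized counts in Ctrl and 1242 and 802 in cKO (1.24, and 0.59 length-corrected), and was the 1 called higher. *Nr1h3*, the oxysterol receptor LXRα, measured 2078 in Ctrl and 909.8 and 1014 in cKO (-1.11, and -0.75 length-corrected), and was the 1 called lower. *Jun* was higher by 0.96 (0.99 length-corrected). In the crypts 20 were listed with a median of -0.07 and none called. *Nr1h2* (0.31, and 0.17 length-corrected) and *Nr1i2* (0.27, and 0.2), the receptors LXRβ and PXR, were higher in both cKO crypt libraries, each with a limma adjusted p of 1.00.

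Because ileal genes depend on where along the intestine tissue is taken, regional markers were set beside the members. In the villi the 9 distal markers had a median of -0.45, and -0.01 after the length correction. Of these, 3 were higher and 5 lower in both cKO libraries, beside 43.7% and 44.2% of all genes. *Lypd8* (-1.14, and -0.51 length-corrected) and *Pyy* (-1.19, and -0.32) were lower, and *Cubn*, the receptor that takes up the vitamin B12 complex in the ileum, was higher (1.47, and 0.4). The 12 proximal markers had a median of -0.06, with *Onecut2* (1.37, and 0.04 length-corrected) and *Trpv6* (1.08, and 1.18) higher and *Osr2* (-0.72, and -0.57) lower. Of the proximal markers, 5 were higher and 5 lower in both cKO libraries. Regional markers thus moved in both directions, with more distal markers lower than higher, and their part in the member values was not tested. In the crypts the distal median was 0.1. The proximal median was -0.05, and *S100g*, an intestinal calcium-binding protein gene, measured 424 and 488 normalized counts in Ctrl and 869 and 958 in cKO (1.00, SE 0.26, limma adjusted p = 1.00), a difference that was 0.41 after the length correction.

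Markers of other cells also moved in the villi. The 10 immune markers summed to 24311 normalized counts in Ctrl and 7112 and 7449 in cKO, and *Cd74* was the largest part of the Ctrl sum at 12383. None was at 0 in any library. In both cKO libraries 6 were lower and 1 higher, beside 44.2% and 43.7% of all genes, and 3 overlapped. *Ptprc* was the 1 higher (1.72, and 1.21 length-corrected), and *Cd3e* and *Cd8a* were among the 3 that overlapped (each -0.01). The 12 enterocyte markers summed to 549435 in Ctrl and 454291 and 392279 in cKO, with a median of -0.1. In the crypts the enterocyte sums were 147147 and 210312 in Ctrl and 149794 and 181683 in cKO. The part of either list in the member values was not tested, and in bulk RNA fewer cells of a type and less RNA per cell cannot be told apart.

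**Figure D4:**
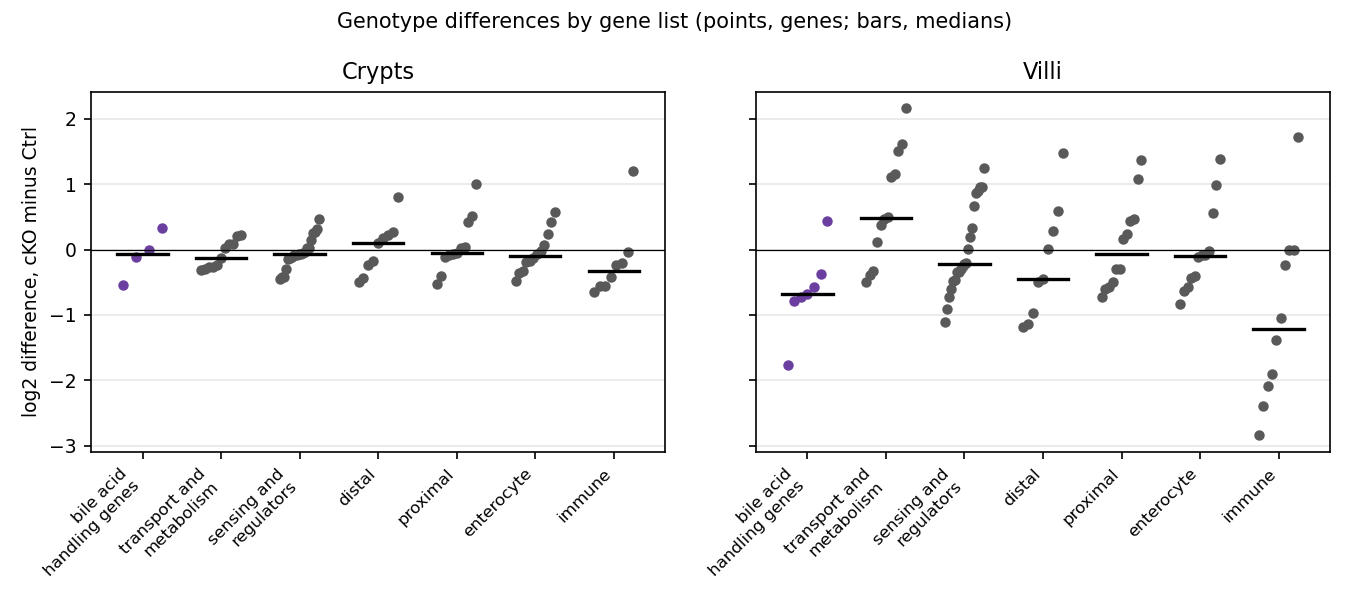
Log2 difference of cKO from Ctrl (vertical axis) for each listed gene of 7 lists in crypts (left) and villi (right); each point is a gene, the bars are list medians, and the bile acid handling genes are purple. In the villi the bile acid handling genes have a median of -0.68, the transport and metabolism genes 0.48 and the immune markers -1.21. After the length correction, which is not drawn, these are -0.03, 0.68 and -0.59. In the crypts the medians of the first 2 of these lists are -0.07 and -0.13 as drawn.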

How the data were processed

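RNA-seq libraries of small intestinal crypt and villus epithelium were grouped by the genotype in the labels. The authors aligned reads to mm10 with STAR, counted them per gene and divided each library's counts by its DESeq2 size factor, and this signal was deposited. The deposited tables also hold the authors' log2 fold changes, test score (a Wald statistic) and p-values, which were not used. Only genes with an adjusted p from the authors are listed. The counting program, its strand setting and versions are not given in the sources used here, so overlapping and antisense genes are uncertain. All values were whole multiples of 1 step per library (100% within 0.001 of a whole number), from which reads and CPM were taken. A further check of this recovery, which starts from the lowest values, was passed by the villus table only, so no count model of the crypts is reported.

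Members and gene lists were chosen with earlier results of these data known. In R 4.3.3, limma 3.58.1 (limma-trend) compared the crypts without a block. It took log2 of the value plus a pseudocount of 1, kept genes whose mean reached 1, and adjusted p-values by the Benjamini-Hochberg method over all genes. Fold changes on this scale understate those of low genes. The call was an unadjusted p under 0.01 with an absolute log2 fold change over 1. The script was tested on simulated data. Villi and the crypt and villus comparison were given as values. The length correction subtracted a lowess curve (span 0.3) over the longest annotated transcript from each library. Named genes were the members, *Ptgs1* and *Ptgs2*, up to 3 genes per list and tissue with the largest difference among those with both cKO libraries on one side of Ctrl, and the 5 genes most like *Fabp6*; 1 gene that this rule names is not reported here. Promoters and annotation were RefSeq (GRCm38.p6) and GRCm38 gene models. Alternatives were the replicate block, library size alone, no filter, at least 10 reads in every library, a pseudocount of 0.1, the length correction and leaving out each library. Figures were drawn with matplotlib 3.10.9.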

Additional observations from a re-analysis of the deposited data

How the results depend on the processing

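Crypt calls depended on single libraries, the villi had 1 Ctrl library, and few reads limited *Nr0b2* and *Fgf15*. As set out, 20 crypt genes were higher, 1 lower and 0 had an adjusted p under 0.05 in limma. With the replicate block these became 63, 15 and 34, and no member was called. The replicate numbers were not shown to pair the libraries (r = 0.247 over 2 pairs). Genes lower were 4 with library size alone, 4 with the length correction and 6 with the length correction and replicate block, and *Fabp6* was at -0.26 in both of the latter. Leaving out 1 crypt library, where the lone library of a genotype is assumed to vary like the others, gave 15 to 593 genes higher, 3 to 288 lower, 0 to 1987 with an adjusted p under 0.05, and 0 to 1 members called; the highest of each came without cKO replicate 2. *Slc10a2* then ran from -1.22 to 0.14, *Fabp6* from -0.89 to 1.54, *Slc51a* from -0.58 to 0.33 and *Nr1h4* from -0.28 to 0.26. In the villi, library size alone gave 3217 genes called higher and 296 lower in place of 1705 and 1194. It gave 4 members lower in both cKO libraries in place of 6, without a count of that share over all genes. The length correction gave 633 called lower, 3 members lower in both cKO libraries and 0 members called lower, because each library's trend with length was removed. Leaving out a cKO villus library gave 1 to 2 members called lower, with *Nr0b2* added without cKO replicate 2. Ctrl villi exceeded Ctrl crypts for 2 to 3 members when 1 library was left out. No member's call changed with no filter, at least 10 reads in every library or a pseudocount of 0.1; over all genes the second gave 19 crypt genes higher, and the last gave 1749 villus genes called higher and 1227 lower. Of the summary values under alternatives, 58 stayed close to the value as set out and 20 moved. Of those of single genes, 105 kept their direction and call or stayed within the spread between replicates, 11 moved by more, 9 changed sign and 1 newly passed the threshold. The planned edgeR and DESeq2 alternatives for the crypts were tried in an early pass and are not reported, because the read recovery for that table did not pass its check.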

Other observations

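Genes outside the bile acid circuit gave further values. In the crypts, 7 of 8 listed stomach markers were called higher in cKO, beside 0.173% of all crypt genes, with a median log2 fold change of 1.44 (1.26 length-corrected) and adjusted p of 1.00 in limma for those named. *Gkn1*, a gastric mucosal protein gene, measured 5588 and 7915 normalized counts in Ctrl and 32905 and 14115 in cKO. *Tff2*, a trefoil peptide gene of gastric mucous cells, measured 5274 and 4789.9 in Ctrl and 25307 and 10074 in cKO. In the villi, 5 stomach markers were listed and summed to 74.1 normalized counts in Ctrl and 369 and 163 in cKO.

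*Muc2*, which encodes the main secreted intestinal mucin, measured 19796 and 15809 normalized counts in Ctrl crypts and 8235 and 7934 in cKO crypts (log2 fold change -1.13, SE 0.28, limma adjusted p = 1.00, and -1.16 length-corrected). It was the 1 crypt gene called lower, or 0.00866% of all crypt genes. The 8 goblet cell markers had a median of 0.18 in crypts and -0.02 in villi (0.03 and 0.08 length-corrected). The immune markers had a median of -0.33 in crypts and -1.21 in villi (-0.51 and -0.59 length-corrected). In the villi *Igkc*, an antibody light chain gene, measured 5063 in Ctrl and 537 and 935 in cKO, whereas *Ptprc*, the pan-leukocyte CD45 gene, measured 200.4 in Ctrl and 608 and 722 in cKO. Stem cell markers had a median of -0.1 in crypts and 0.48 in villi (-0.02 and 0.28 length-corrected). Enteroendocrine markers had medians of 0.33 and -0.38 (0.15 and 0.04 length-corrected), and mesenchymal markers 0.07 and 0.14 (0.12 and -0.15 length-corrected).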
